A study of Mus musculus with 16 samples.

Results

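The data described here are the response of ATG16L1-deficient small intestinal organoids to 2 hours of tumour necrosis factor (TNF), measured by RNA sequencing in 8 of the 16 libraries of the study. Organoids were grown for 3 days from crypts of C57BL/6 mice. The 4 libraries named dIEC came from untreated organoids of the deletion genotype, and the 4 libraries named dIEC TNF from the same genotype given murine TNF at 20 ng/ml. The other 8 libraries are the control genotype, Atg16l1 f/f, in which the gene is flanked by loxP sites, with 4 untreated and 4 given the same TNF treatment. The sources used here name neither the Cre driver nor the animals or cultures behind each library, so every p-value below measures the spread between these libraries, which may be technical. Of 23847 rows in the expression table, 11097 had a mean of at least 1 FPKM (fragments per kilobase of transcript, scaled to the mapped fragments of a library) over the 16 libraries and entered the fit.

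TNF is a cytokine that binds the receptor TNFR1 on epithelial cells. Through a kinase complex that marks IκB proteins for degradation, it releases the transcription factor NF-κB into the nucleus. NF-κB then drives genes for chemokines, adhesion molecules and its own inhibitors, while the same receptor can also assemble complexes that kill the cell. ATG16L1 belongs to the complex that attaches the lipid tail to LC3 during autophagy, and its human gene carries a coding variant associated with Crohn's disease. In mouse intestine, loss of ATG16L1 is known for abnormal Paneth cells and for greater sensitivity of the epithelium to TNF-induced death.

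Over the 4 untreated and 4 treated dIEC libraries, 5897 rows (53.1% of those tested) differed with TNF at an adjusted p under 0.05. Of these, 3702 rose (33.4%) and 2195 fell (19.8%), and the 4 values of one group lay outside the range of the other in 4711 rows (42.5%). The counts by gene list below are to be read beside the shares of 33.4% and 19.8%. Most changes were small. A called rise of at least 1 on the log2(FPKM + 1) scale was seen in 270 rows (2.43%) and a called fall of that size in 126 (1.14%), and the median log2 change over all rows was 0.0888. The balance of rises and falls rested on the scale: rises were 62.8% of the calls on the deposited FPKM, 49.1% after median-of-ratios scaling and 46.5% after quantile normalization. The FPKM of a library summed to between 509084 and 610125, and 10802 to 11081 rows reached 1 FPKM. On principal component 2 (10.3% of the variance) library 4 of both dIEC groups stood apart (scores of 19.2 and 26.9), as did library 1 of both f/f groups (11.9 and 21.5). Without library 4 of both dIEC groups the rises numbered 3973 and the falls 2236.

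Atg16l1 (chr1:87755870-87792428, plus strand, mm10) was read first as a check of the labels. Its transcript was still present in the deletion genotype, at 5.74, 6.41, 5.2 and 5.2 FPKM without TNF, against 8.37, 9.37, 9.32 and 8.81 FPKM in untreated f/f organoids. A deletion of some exons need not remove the rest of the transcript from a gene-level value. With TNF the dIEC libraries held 7.52, 7.63, 7.08 and 6.74 FPKM, all above the 4 untreated libraries. The rise was 0.31 on the log2 scale (SE 0.064, adjusted p = 0.00081). An exact two-sided permutation test over the 8 libraries gave p = 0.0286, the smallest that 70 splits allow. Any row whose groups do not overlap, as in 42.5% of all rows, reaches that value. The ratio of means with TNF was 1.28 in dIEC and 1.16 in f/f.

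Transcripts of NF-κB itself rose, and so did those of some signalling proteins that lead to it. All 5 NF-κB subunit genes rose, with a median log2 change of 1.17. Nfkb2, which encodes the p100 precursor of p52, stood at 4.49, 5.03, 4.33 and 3.73 FPKM without TNF and at 37.7, 41.7, 43.7 and 28.7 FPKM with it. The groups were far apart, and library 4 was the lowest of the 4 in each. The log2 change was 2.84 (SE 0.16, adjusted p = 2.62e-09). Relb, the partner of p52, rose by 2.45, Rela by 1.17, Rel by 1.06 and Nfkb1 by 0.87. Of 19 receptor and proximal signalling genes that passed the minimum, 9 rose and 3 fell, beside 33.4% and 19.8% of all rows. Birc3, which encodes the ubiquitin ligase cIAP2 at the receptor, went from 11.2, 12.3, 11.5 and 12.1 to 36.8, 37.1, 39.1 and 40.4 FPKM, with no overlap (log2 change 1.63, SE 0.043, adjusted p = 3.82e-13). Tnfrsf1b, the second TNF receptor, rose by 1.16 and Traf3, an adaptor that restrains the alternative NF-κB pathway, by 0.98. The 3 falls were in Chuk (-0.26), Tab3 (-0.22) and Ikbkg (-0.20), and the main receptor gene Tnfrsf1a did not pass the test (0.23, adjusted p = 0.119). Tnfrsf1a passed under 4 alternatives, among them the replicate block, a fit with a term for libraries of one genotype that share a replicate number (adjusted p = 0.000184), and the fit without library 4 of dIEC TNF (adjusted p = 0.0344). The fall of Tab3 was lost without library 4 of dIEC (adjusted p = 0.0599) or library 1 of dIEC TNF (adjusted p = 0.0647).

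The genes that switch NF-κB off rose along with it. Among 14 feedback inhibitors kept, 12 rose and none fell, 8 of them by at least 1 on the log2 scale, with a median of 1.03. Nfkbia encodes IκBα, which holds NF-κB in the cytoplasm and is resynthesized after each stimulus. Its level was 21.8, 21.4, 18.8 and 18.8 FPKM without TNF and 219, 218, 219 and 192 FPKM with it. The treated libraries all lay far above the untreated ones, with a ratio of means of 10.5, and the log2 change was 3.33 (SE 0.083, adjusted p = 1.96e-13). Tnfaip3, which encodes the ubiquitin-editing enzyme A20, rose from 2.31, 2.7, 2.12 and 2.39 to 24.7, 23.6, 24.0 and 25.2 FPKM. The 4 treated values of Tnfaip3 lay close together, and the log2 change of 2.91 had an SE of 0.054 (adjusted p = 3.92e-15). Bcl3, an atypical IκB protein, rose by 3.26, Tnip1, an A20 partner, by 1.89, and Zc3h12a, an RNase that degrades cytokine transcripts, by 1.40. Tnip2 (0.18, adjusted p = 0.054) and Cyld (0.09, adjusted p = 0.231) were the 2 kept inhibitors that did not pass the test. Both passed with the replicate block (adjusted p = 0.0214 and 0.0275) and with sample weights, and of the fits without a single library Cyld passed without library 4 of dIEC (0.032) and Tnip2 without library 2 of dIEC (0.0194), library 1 or 4 of dIEC TNF (0.0447 and 0.0231) or library 1 of f/f TNF (0.0449).

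In the control genotype the median log2 change of these inhibitors was 1.04. None of the 14 was called for a difference of the responses, with or without the replicate block, beside 3.29% of all rows without it and 11.1% with it. For Nfkbia the response was 3.33 in dIEC and 3.33 in f/f, a difference of 0.00 with an SE of 0.12. For Tnfaip3 the difference was -0.0057 (SE 0.076). None of the 5 subunit genes or 19 proximal genes was called for a difference in this fit. The replicate block called Rela (0.16, adjusted p = 0.0405) and Tnfrsf1b (0.34, adjusted p = 0.0118), and 7 further alternatives called Tnfrsf1b, both other scalings and the fits without library 1 of f/f (adjusted p = 0.0229) or library 2 of dIEC (adjusted p = 0.0264) among them.

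**Figure D1:**
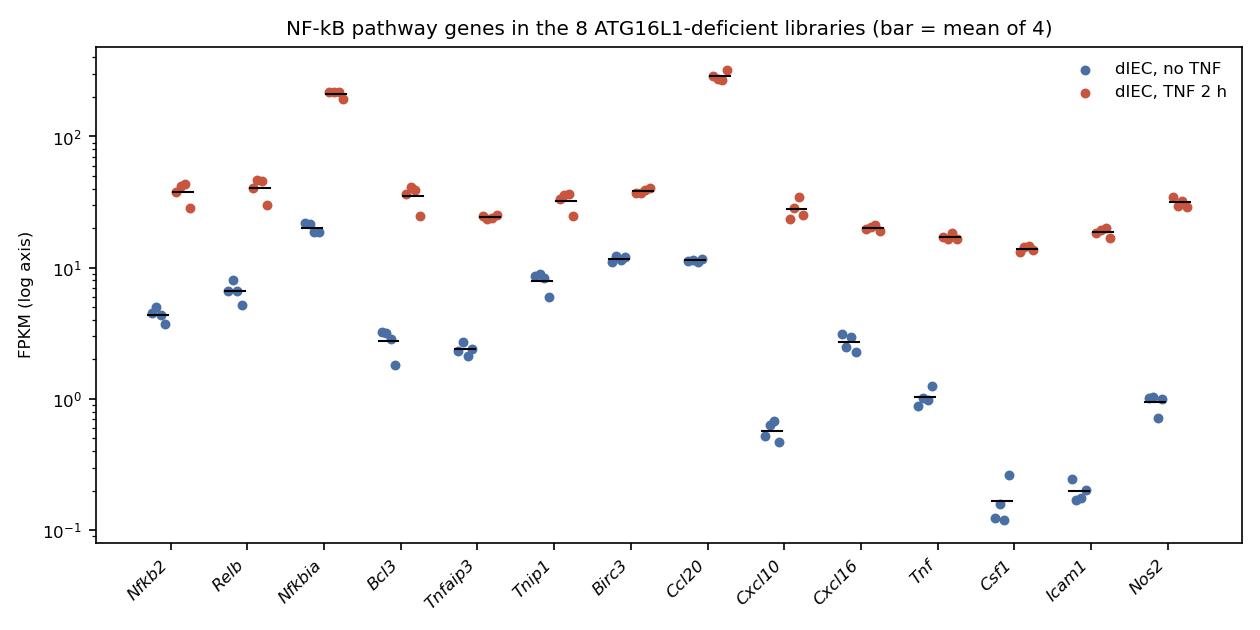
FPKM (log axis) of 14 NF-κB pathway genes in the 4 untreated (blue) and 4 TNF-treated (red) dIEC libraries, 1 point per library, with a bar at the mean of 4. For each gene the 4 treated values lie above the 4 untreated ones, from Birc3 at 11.8 ± 0.537 against 38.4 ± 1.68 FPKM to Icam1 at 0.198 ± 0.0344 against 18.7 ± 1.43 FPKM (mean ± SD, n = 4).

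The sequences just upstream of 6 of these and the following genes are shown because they hold matches to a motif of a factor known to act after TNF or interferon, and they were picked after the values were seen. They are the 250 bases before the RefSeq start of the gene (GRCm38.p6), read 5′ to 3′ on the gene's strand. Nfkbia (chr12:55492648-55492897, minus strand), Ccl20 (chr1:83116516-83116765, plus strand), Csf1 (chr3:107760470-107760719, minus strand) and Cxcl10 (chr5:92348890-92349139, minus strand) hold the NF-κB consensus, in capitals. In Cxcl10 the capitals also mark an upstream interferon-stimulated response element (ISRE), searched on both strands as GAAA, 2 bases of any kind and GAAA again, and the downstream capitals are 2 overlapping NF-κB matches. Isg15 (chr4:156200819-156201068, minus strand) holds 3 overlapping ISRE matches and Ifit3 (chr19:34583279-34583528, plus strand) holds 2 on the other strand.
Nfkbia: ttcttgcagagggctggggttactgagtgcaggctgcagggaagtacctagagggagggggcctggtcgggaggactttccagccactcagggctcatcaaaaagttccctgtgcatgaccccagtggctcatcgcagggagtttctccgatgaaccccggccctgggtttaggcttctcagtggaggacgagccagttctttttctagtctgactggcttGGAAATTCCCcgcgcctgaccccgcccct
Ccl20: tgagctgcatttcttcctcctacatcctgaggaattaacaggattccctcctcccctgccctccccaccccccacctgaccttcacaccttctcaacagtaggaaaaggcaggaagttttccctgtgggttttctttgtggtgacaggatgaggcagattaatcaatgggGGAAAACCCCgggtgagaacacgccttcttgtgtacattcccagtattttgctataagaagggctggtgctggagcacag
Csf1: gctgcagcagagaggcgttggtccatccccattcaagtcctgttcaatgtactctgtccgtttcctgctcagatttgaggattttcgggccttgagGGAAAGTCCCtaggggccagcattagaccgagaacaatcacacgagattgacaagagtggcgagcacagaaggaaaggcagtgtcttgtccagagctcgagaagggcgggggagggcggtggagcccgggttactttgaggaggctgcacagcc
Cxcl10: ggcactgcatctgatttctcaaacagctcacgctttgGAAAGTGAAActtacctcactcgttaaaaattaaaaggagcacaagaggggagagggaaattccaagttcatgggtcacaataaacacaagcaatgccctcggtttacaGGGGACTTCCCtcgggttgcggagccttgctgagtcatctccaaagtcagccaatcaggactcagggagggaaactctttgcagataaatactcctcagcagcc
Isg15: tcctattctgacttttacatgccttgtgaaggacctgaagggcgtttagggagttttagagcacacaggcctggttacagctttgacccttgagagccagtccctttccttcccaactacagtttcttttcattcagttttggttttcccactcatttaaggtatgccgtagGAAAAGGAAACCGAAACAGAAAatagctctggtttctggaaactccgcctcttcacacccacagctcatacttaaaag
Ifit3: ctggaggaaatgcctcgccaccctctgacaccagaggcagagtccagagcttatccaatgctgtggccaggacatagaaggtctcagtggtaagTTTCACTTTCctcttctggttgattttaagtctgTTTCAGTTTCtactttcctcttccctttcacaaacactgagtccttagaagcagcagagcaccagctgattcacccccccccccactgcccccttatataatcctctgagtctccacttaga

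Matches of these kinds are not rare in promoters. The NF-κB consensus was found in the window searched (the 250 bases before the start) of 5.67% of 27025 genes and the ISRE in 3.46%. Of the 14 feedback inhibitors kept, 12 matched a window, and 5 of those held the NF-κB consensus (Nfkbia, Nfkbid, Tnfaip3, Tnip1 and Cyld) and 0 an ISRE. Cyld held a match and was not called, and Bcl3 rose by 3.26 without being among the 5. A match is a description of letters, and no binding was measured.

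Transcripts of secreted factors rose, some of them from under 1 FPKM. Ccl20, the chemokine that draws CCR6-bearing lymphocytes and dendritic cells to the epithelium, had the largest rise of the named genes on the log2(FPKM + 1) scale, while by ratio of means Icam1, Csf1, Cxcl10 and others rose more. It stood at 11.3, 11.4, 11.1 and 11.6 FPKM without TNF and at 291, 276, 272 and 324 FPKM with it, a log2 change of 4.55 (SE 0.073, adjusted p = 5.32e-16). The replicates of each group lay within a narrow band. Cxcl10, a ligand of CXCR3 on T cells, rose from 0.522, 0.632, 0.676 and 0.467 to 23.4, 28.7, 34.4 and 25.1 FPKM, with library 3 the highest in both groups (log2 change 4.18, SE 0.12, adjusted p = 1.51e-12). Cxcl16, a membrane-bound chemokine, rose from 3.13, 2.51, 2.95 and 2.29 to 19.8, 20.6, 21.1 and 19.0 FPKM (log2 change 2.51). Of 9 chemokine genes kept out of 21 listed, 6 rose and 2 fell. The 2 falls were in Ccl25, the gut-homing chemokine of the small intestine (449, 409.7, 406 and 406 against 330.3, 308, 315 and 342 FPKM, log2 change -0.37), and in Ccl6 (-0.44).

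Several classical neutrophil chemokines stayed very low. Cxcl1 was at 0.237, 0.181, 0.194 and 0.139 FPKM without TNF and 1.35, 1.72, 1.26 and 1.68 FPKM with it, and Cxcl2 at 0.0253, 0, 0 and 0 and 0.591, 1.07, 0.882 and 0.73 FPKM. Both lay below the minimum mean and were not tested, although their groups did not overlap. Of the 11 chemokines below the minimum, 6 had all treated values above all untreated ones and none the reverse. Over all 155 list members below the minimum, 64 had treated values all above and 9 all below. The highest treated value among these chemokines was 1.72 FPKM. A 0 in this table may be a failed estimate.

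The organoids also raised cytokine transcripts, TNF itself among them. Tnf stood at 0.88, 1.01, 0.978 and 1.27 FPKM without added TNF and at 17.1, 16.4, 18.4 and 16.7 FPKM after it (log2 change 3.16, SE 0.077, adjusted p = 1.48e-13). Csf1, the macrophage growth factor, rose from 0.123, 0.159, 0.119 and 0.263 to 13.3, 14.3, 14.7 and 13.7 FPKM. Because its untreated values lay well below the pseudocount of 1, the log2 change of 3.69 understates the ratio of means, which was 84.2. Tnfsf10, which encodes the death ligand TRAIL, rose by 1.32, and Il1rn, the interleukin-1 receptor antagonist, by 1.58. Il18 was the 1 of 9 kept cytokine genes that fell, from 38.8, 29.5, 38.2 and 34.5 to 24.5, 20.5, 18.9 and 24.0 FPKM (log2 change -0.66, adjusted p = 5.83e-05), while 7 rose. The other 16 listed cytokines were below the minimum, with no value over 1.16 FPKM after TNF.

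On the cell surface, 10 of 12 kept genes rose and 1 fell. Icam1, the adhesion molecule bound by leukocyte integrins, rose from 0.245, 0.17, 0.175 and 0.203 to 18.2, 19.4, 20.2 and 16.9 FPKM, a ratio of means of 94.2 (log2 change 4.04, SE 0.099, adjusted p = 1.6e-13). Its untreated values were all below 1 FPKM. Pvr, a ligand of receptors on natural killer cells, rose by 1.39 and F11r, the junctional adhesion molecule JAM-A, by 0.93. Vcam1 was below the minimum, with 0.0613, 0, 0 and 0.0386 FPKM after TNF.

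Most immediate early genes and further NF-κB targets were above the untreated level at 2 hours. Among 24 kept immediate early and AP-1 genes, 18 rose and 1 fell, with a median of 0.90. Atf3, a stress-induced repressor, went from 3.46, 2.57, 2.85 and 2.31 to 19.7, 20.0, 17.7 and 19.0 FPKM (log2 change 2.41, SE 0.084, adjusted p = 1.15e-11), with no overlap. The phosphatase genes Dusp1 (1.83) and Dusp8 (1.50), which inactivate MAP kinases, rose as well. Myc was not called (21.2, 23.4, 20.8 and 19.0 against 23.4, 27.2, 26.4 and 18.6 FPKM, adjusted p = 0.263), although it passed under 4 alternatives, with the replicate block (adjusted p = 0.0293) and without library 4 of dIEC TNF (adjusted p = 0.0397) among them. Of 15 other NF-κB targets, 14 rose, including Irf1, a transcription factor of the interferon pathway (1.45), Bcl10, an adaptor of NF-κB signalling (1.04), and Tnfaip8 (1.09). Sod2, a mitochondrial superoxide dismutase often used as a TNF target, was not called (0.077, adjusted p = 0.0609), although it passed under 5 alternatives, such as the replicate block (adjusted p = 0.0228) and the fit without library 1 of f/f TNF (adjusted p = 0.038).

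**Figure D2:**
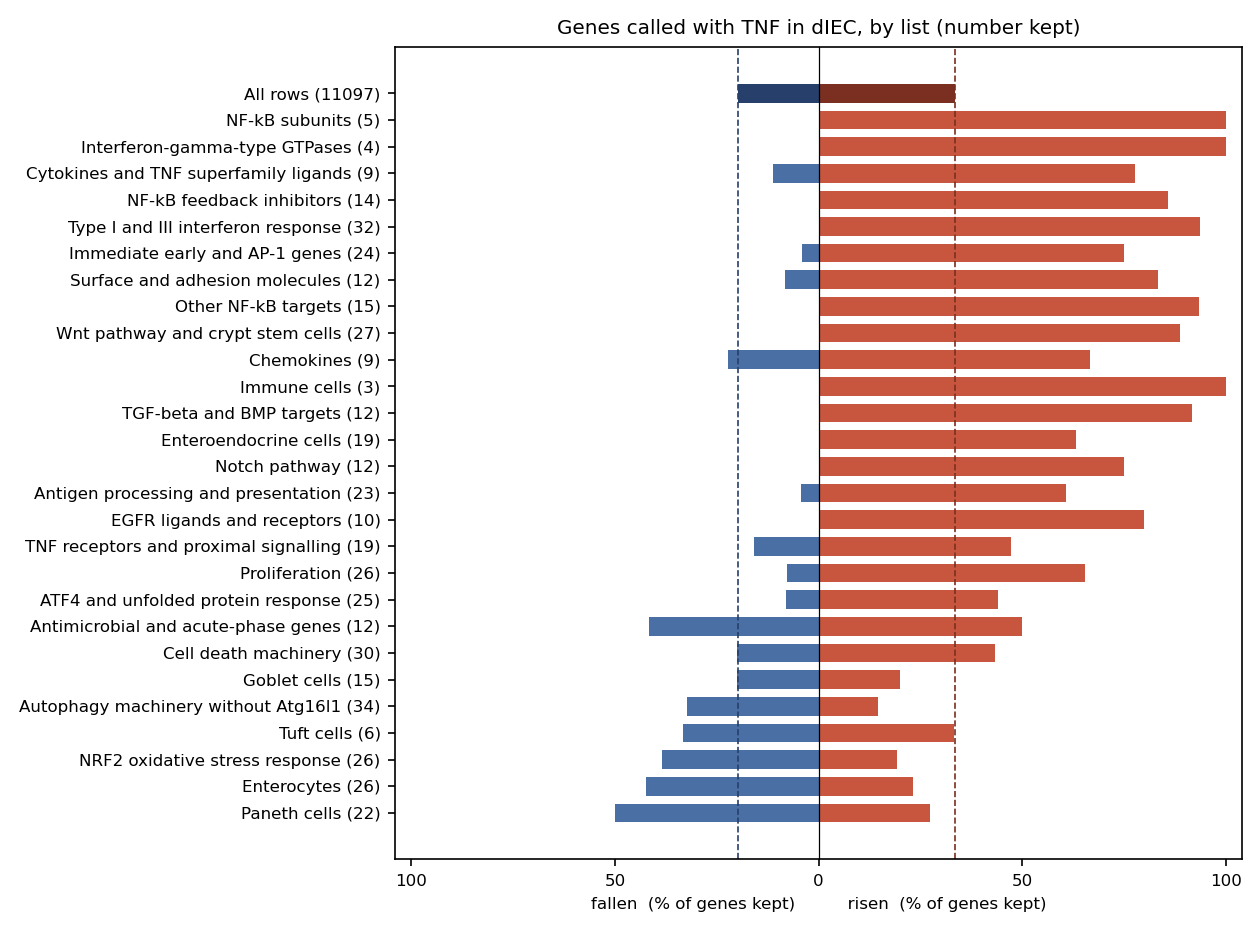
Share of the kept members of each gene list called risen (red, to the right) or fallen (blue, to the left) with TNF in dIEC, in percent, sorted by the median log2 change, with all 11097 rows on top and their shares (33.4% and 19.8%) as dashed lines. NF-κB subunits (5 of 5) and interferon responses (30 of 32) are almost wholly risen, while Paneth (11 of 22) and enterocyte (11 of 26) lists hold more falls than rises (after quantile normalization the Paneth list holds 5 falls and 7 rises).

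Interferon-stimulated genes rose, and 11 of 32 rose more in dIEC than in the control. Of 32 kept targets of type I and III interferons, 30 rose and none fell, 15 of them by at least 1, with a median of 0.96 in dIEC and 0.38 in f/f. By the test of the difference none had a smaller response in dIEC, and the shares called higher and lower over all rows were 1.39% and 1.90%. With the replicate block the number called higher was 22, beside 6.32% of all rows. Isg15, a ubiquitin-like modifier, stood at 5.43, 4.9, 5.59 and 2.79 FPKM without TNF and 33.1, 50.8, 56.5 and 22.0 FPKM with it. Libraries 2 and 3 were high and library 4 low in the treated group, and the log2 change of 2.82 had a wide SE of 0.28 (adjusted p = 1.22e-06). In f/f the change of Isg15 was 1.44, and the difference of 1.38 did not pass the test (SE 0.4, adjusted p = 0.089). It passed under 6 alternatives, with adjusted p of 0.003 to 0.0297, among them the replicate block (0.0183) and the fit without library 4 of dIEC TNF (0.0214).

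Rsad2, which encodes the antiviral enzyme viperin, was at 0.148, 0.183, 0.17 and 0.127 FPKM in untreated and 2.44, 4.22, 5.58 and 2.76 FPKM in treated dIEC libraries. In f/f it went from 0.139, 0.050, 0.119 and 0.195 to 0.237, 0.402, 0.364 and 0.221 FPKM, so that the treated dIEC libraries lay above all 12 others. The difference of the 2 responses was 1.78 (SE 0.21, adjusted p = 0.000288). Ifit3, an RNA-binding antiviral protein, rose from 0.415, 0.336, 0.364 and 0.349 to 2.48, 5.48, 8.05 and 2.44 FPKM in dIEC, and in f/f it went from 0.171, 0.107, 0.308 and 0.202 to 0.284, 0.422, 0.466 and 0.293 FPKM (difference 1.72, SE 0.32, adjusted p = 0.00759). Ifit1 (1.43, adjusted p = 0.00699), Usp18, a deconjugase of ISG15 (1.31, adjusted p = 0.00492), and Ifi27l2a (1.40, adjusted p = 0.0222) followed the same order. The difference for Ifi27l2a was lost without library 2 of dIEC (adjusted p = 0.0509) or of dIEC TNF (adjusted p = 0.0536), and with a pseudocount of 0.1 (adjusted p = 0.206).

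Not every interferon-linked gene differed. Samd9l rose by 1.09 in dIEC and 1.15 in f/f (difference -0.059, SE 0.095), and Irf1 by 1.45 and 1.43. Slfn2, a member of the Schlafen family, rose from 0.445, 0.431, 0.389 and 0.431 to 11.2, 17.5, 19.5 and 12.0 FPKM in dIEC and from 0.0874, 0.0755, 0.0903 and 0.0983 to 2.55, 3.44, 3.46 and 2.41 FPKM in f/f (difference 1.60, SE 0.2, adjusted p = 0.000358). The difference for Slfn2 rests on the pseudocount: the ratio of means was 35.5 in dIEC and 33.7 in f/f, and with a pseudocount of 0.1 in place of 1 the difference was 0.80 (adjusted p = 0.097). All 4 kept immunity-related GTPases of the interferon-γ type rose in dIEC, and 3 of them (Igtp 0.82, Irgm2 0.61 and Irgm1 0.61) had a higher response there than in f/f. Irgm1 did not rise in f/f, where its ratio of means was 0.941, against 1.48 in dIEC. Without library 2 of dIEC TNF the differences of Igtp and Irgm2 were lost (adjusted p = 0.0531 and 0.0593), and that of Irgm2 also without library 2 of dIEC or of f/f, library 3 of dIEC TNF or library 4 of f/f TNF (adjusted p of 0.0501 to 0.0529). With a pseudocount of 0.1 both differences were lost as well (0.64, adjusted p = 0.208, and 0.56, adjusted p = 0.256). Igtp and Irgm2 overlap in the genome on the same strand, so that reads of one may count for the other. The interferon ligand genes themselves, looked up after the values were seen, were near 0. Ifnb1 was listed at 0 in all 16 libraries, and Ifnl2 and Ifnl3 were at 0.0587, 0.0564, 0 and 0 and at 0.0587, 0, 0.0589 and 0 FPKM in the treated dIEC libraries.

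MHC class II genes rose with TNF in both genotypes, and 2 of them rose less in dIEC. Cd74, the invariant chain that escorts class II molecules, rose from 5.44, 5.68, 5.68 and 3.9 to 40.1, 45.5, 50.4 and 29.7 FPKM in dIEC (log2 change 2.77, SE 0.17, adjusted p = 5.15e-09). In f/f it rose from 1.54, 2.38, 2.42 and 2.13 to 36.5, 56.9, 55.3 and 47.1 FPKM, a change of 3.99. The treated levels of the genotypes overlapped, while the untreated dIEC libraries lay above the untreated f/f ones, and the difference of the changes was -1.22 (SE 0.24, adjusted p = 0.00973). H2-Ab1, a class II β chain, gave 2.28 in dIEC and 3.26 in f/f (difference -0.98, adjusted p = 0.0152). With a pseudocount of 5 neither class II difference passed (adjusted p = 0.0537 for Cd74 and 0.0908 for H2-Ab1). H2-Aa rose by 2.04 and 2.66, a difference that was not called (adjusted p = 0.141) but passed under 3 alternatives, the fit without library 1 of f/f TNF (adjusted p = 0.0441) among them. Ciita, the master regulator of class II genes, was below the minimum at 0.0283, 0.0529, 0.089 and 0.0312 FPKM without and 0.38, 0.423, 0.484 and 0.279 FPKM with TNF in dIEC. Over the 23 kept genes of antigen processing, 14 rose and 1 fell, and the replicate block raised the falls to 3. The class I genes B2m (0.16) and H2-K1 (0.34) rose by less, and median-of-ratios scaling lost both calls (adjusted p = 0.416 and 0.0529). The rise of H2-K1 was also lost without any 1 of 5 libraries (adjusted p of 0.0615 to 0.108).

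The antimicrobial genes split sharply. Of 12 kept, 6 rose and 5 fell, and the falls included the deepest of the named genes on the log2(FPKM + 1) scale, Reg3b, although by ratio of means Isx fell further (0.0194 against 0.0527). Reg3b, a secreted C-type lectin that binds bacteria, dropped from 983, 739, 879 and 828 FPKM to 47.2, 44.8, 39.5 and 49.4 FPKM in dIEC. No treated value came near the untreated ones, and the log2 change was -4.21 (SE 0.096, adjusted p = 6.3e-14). In f/f Reg3b went from 669, 581, 633 and 601 to 147, 153, 183 and 144 FPKM, a change of -1.98. The untreated dIEC libraries were above the untreated f/f libraries and the treated ones below, and the difference of the changes was -2.23 (SE 0.14, adjusted p = 4.66e-07).

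Reg3a showed the same order with a smaller range. It fell from 430.4, 351, 398 and 389.8 to 126, 115, 113 and 136 FPKM in dIEC, and in f/f it went from 256, 251, 261 and 257 to 222, 218, 245 and 219.7 FPKM. The dIEC change was -1.67 and the f/f change -0.18 (difference -1.49, SE 0.095, adjusted p = 4.66e-07). Reg1, another lectin of the family, changed by -1.68 in dIEC and -1.18 in f/f (difference -0.50, adjusted p = 0.0492), a difference that was lost in 14 of the 16 fits without a single library (adjusted p up to 0.111). Reg3g, the best known bactericidal lectin of this family in mouse, was not called (67.9, 60.0, 65.0 and 64.1 against 57.5, 53.8, 62.5 and 63.7 FPKM, adjusted p = 0.261). The Reg genes are paralogs, and the sources used here do not say how reads shared between them were assigned.

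Genes that produce reactive nitrogen and oxygen species rose. Nos2, the inducible nitric oxide synthase, went from 1.02, 1.04, 0.711 and 0.999 to 34.7, 29.7, 32.4 and 29.0 FPKM (log2 change 4.06, SE 0.085, adjusted p = 2.15e-14), against a change of 3.16 in f/f (difference 0.90, adjusted p = 0.000611). The NADPH oxidase gene Nox1 rose from 11.7, 9.67, 8.71 and 15.9 to 53.3, 38.7, 40.7 and 56.1 FPKM. Duox2, the epithelial hydrogen peroxide source, and its maturation factor Duoxa2 rose by 1.62 and 1.55, each more than in f/f (differences 0.70 and 0.73, adjusted p = 0.0054 and 0.00308). With a pseudocount of 0.1 the difference for Nos2 was 0.45 and not called (adjusted p = 0.257), and its ratios of means were 33.4 in dIEC and 27.0 in f/f. That for Duoxa2 was not called either (adjusted p = 0.071). Saa3, an acute-phase protein below the minimum mean, went from 0.0635, 0, 0.118 and 0.0589 to 2.67, 1.86, 2.27 and 2.49 FPKM.

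Most genes of the NRF2 programme, which detoxifies electrophiles, fell or were not called. Of 26 kept, 5 rose and 10 fell, with a median of -0.11. The rises numbered 2 without library 1 of dIEC TNF and 3 without library 3 or 4 of either dIEC group. The glutathione S-transferase genes Gsta1 (2992, 2746, 2944 and 2579.8 against 1312, 1103, 1099 and 1259 FPKM, log2 change -1.24) and Gsta3 (-1.24) fell, as did Gclc, the rate-limiting enzyme of glutathione synthesis (-0.88), and Nqo1, a quinone reductase (-0.98). Hmox1, haem oxygenase, went the opposite way. It rose from 2.67, 2.55, 2.42 and 2.11 to 17.7, 18.3, 16.4 and 15.7 FPKM in dIEC and from 5.08, 3.58, 3.84 and 4.32 to 10.6, 12.6, 12.1 and 14.9 FPKM in f/f, which started higher. The changes were 2.39 and 1.38 (difference 1.01, SE 0.14, adjusted p = 0.000761). Gsta4, another glutathione S-transferase, changed by -0.15 in dIEC and -0.86 in f/f (difference 0.70, adjusted p = 0.000308). Its change in dIEC was lost under 11 alternatives (adjusted p of 0.0509 to 0.146) and had the opposite sign after quantile normalization (adjusted p = 0.943).

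The cell death list moved in both directions, with 13 rises and 6 falls among 30 kept genes, beside 33.4% and 19.8% of all rows. The apoptosis inducers Pmaip1, which encodes NOXA (11.2, 10.6, 11.3 and 12.2 against 28.7, 27.7, 28.0 and 32.9 FPKM, log2 change 1.30), and Tnfrsf10b, a TRAIL receptor (0.87), rose together with the inhibitor gene Birc3. Casp4, the sensor of cytosolic lipopolysaccharide, rose by 1.11. Casp6, an executioner caspase gene, went from 85.7, 78.8, 80.8 and 68.6 to 47.3, 49.5, 45.7 and 41.5 FPKM, a fall (log2 change -0.76). Mlkl, the effector of necroptosis, rose from 4.3, 4.86, 3.87 and 4.76 to 6.19, 6.67, 6.62 and 5.78 FPKM in dIEC (log2 change 0.43, adjusted p = 5.21e-05) and changed by -0.16 in f/f, and the difference of 0.59 was called (SE 0.089, adjusted p = 0.00154). Ripk1, the kinase at the branch between survival and death, was not called (-0.046, adjusted p = 0.492), and Ripk3 rose by 0.27. Cflar, the caspase-8 inhibitor cFLIP, fell by 0.16 on the log2 scale (adjusted p = 0.00349).

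Autophagy genes other than Atg16l1 changed little. Of 34 kept, 5 rose and 11 fell, with a median of -0.014, and the replicate block raised the rises to 12. They numbered 3 without library 3 of dIEC, 1 of dIEC TNF or 3 of dIEC TNF, 8 without library 1 of f/f TNF and 9 without library 4 of dIEC TNF. Sqstm1, which encodes the cargo receptor p62 and is itself an NF-κB and NRF2 target, rose from 53.4, 55.9, 53.1 and 45.8 to 112, 116, 114 and 99.0 FPKM (log2 change 1.07, SE 0.082, adjusted p = 6.18e-08). Wipi1, which binds early autophagosome membranes, rose by 0.85, and Atg4a, a protease that processes LC3-family proteins, fell by 0.59 on the log2 scale. The genes of the partners in the ATG16L1 complex fell slightly, Atg5 from 27.5, 24.5, 25.6 and 26.0 to 20.6, 19.8, 20.1 and 22.1 FPKM (-0.31) and Atg12 by 0.20 on the log2 scale. None of the 34 was called for a difference of the responses, beside 3.29% of all rows. The replicate block called Atg9a (adjusted p = 0.0281), beside 11.1% of all rows, and sample weights called Atg12 (adjusted p = 0.0296).

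Of 25 genes of the ATF4 and unfolded protein responses, 11 rose and 2 fell, beside 33.4% and 19.8% of all rows. The replicate block raised the falls to 4. Ddit4, an inhibitor of mTORC1, rose by 1.03, Ern1, the stress sensor IRE1α, by 0.68, and the chaperone gene Hspa5 from 231, 238, 217 and 251 to 308, 313, 318 and 338 FPKM (0.45). Xbp1, the target of IRE1α, was not called (-0.094, adjusted p = 0.052), but passed as a fall under 10 alternatives (adjusted p of 0.00482 to 0.0482), among them the replicate block (0.0169), median-of-ratios scaling (0.00482), and the fits without library 3 of dIEC (0.0142), library 4 of dIEC TNF (0.0227) or library 1 of f/f TNF (0.0482).

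Growth and crypt genes rose broadly. Of 27 kept genes of the Wnt pathway and crypt stem cells, 24 rose and none fell, with a median of 0.69 in dIEC and 0.66 in f/f. The rises numbered 23 after median-of-ratios scaling, with 1 fall, and 22 after quantile normalization. Ascl2, the transcription factor of intestinal stem cell identity, went from 2.36, 2.6, 2.52 and 2.1 to 17.2, 18.9, 19.5 and 12.8 FPKM (log2 change 2.40, SE 0.14, adjusted p = 3.19e-09). Lgr5, the R-spondin receptor that marks crypt base columnar cells, went from 5.16, 5.89, 5.27 and 8.22 to 19.7, 21.7, 24.2 and 24.9 FPKM (1.74). Library 4 was the highest for Lgr5 in both groups and the lowest for Ascl2. Tnfrsf19, which encodes the stem cell receptor TROY, rose by 1.64, the Wnt effector Tcf7 by 1.08 and the feedback gene Axin2 from 11.8, 14.2, 12.9 and 12.2 to 25.5, 28.0, 27.9 and 21.8 FPKM (0.96). Olfm4, an abundant stem cell marker, rose from 784, 787, 787 and 955 to 1145, 1115, 1143 and 1209.5 FPKM (0.48), and Smoc2 was not called (-0.044, adjusted p = 0.541). In bulk RNA, more cells of a type and more RNA per cell cannot be told apart, here and for each cell type below. None of the 27 was called for a difference of the responses, beside 3.29% of all rows. Cdca7 was called with the replicate block (adjusted p = 0.0486), beside 11.1% of all rows, and with sample weights (adjusted p = 0.0158). The change of Lgr5 was 1.74 in dIEC and 1.78 in f/f (difference -0.036, SE 0.16).

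Ligands and receptors around the crypt rose as well. Of 12 kept TGF-β and BMP genes, 11 rose, among them Bmp2 (1.19, 1.09, 0.857 and 1.17 against 6.32, 6.87, 6.3 and 6.58 FPKM, log2 change 1.86, adjusted p = 9.72e-13), the BMP target Id2 (1.43) and the receptor gene Tgfbr2 (1.38). Of 12 Notch pathway genes, 9 rose, led by the ligand Dll1 (1.01) and the receptor Notch2 (0.80). Of 10 genes of the EGF receptor system, 8 rose on the deposited scale, 6 after median-of-ratios scaling and 5 after quantile normalization, with 1 fall in each of the last 2. The ligand gene Areg rose from 20.7, 23.6, 25.4 and 23.5 to 89.0, 91.5, 86.6 and 92.3 FPKM (log2 change 1.91, SE 0.059, adjusted p = 2.74e-12). Ereg (1.16 in dIEC, 0.70 in f/f, adjusted p of the difference 0.00969) and Hbegf (0.79 and 0.45, adjusted p of the difference 0.0172), ligands of the same receptor, rose more in dIEC. Proliferation genes shifted modestly. Of 26, 17 rose and 2 fell (4 with the replicate block), with a median of 0.27 in dIEC and 0.059 in f/f. A higher response in dIEC was called for 2 of the 26, and for 14 with the replicate block, beside 1.39% and 6.32% of all rows. Mcm4, part of the replicative helicase, gave 0.57, cyclin D1 (Ccnd1) 0.46 and Mcm6 0.30.

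**Figure D3:**
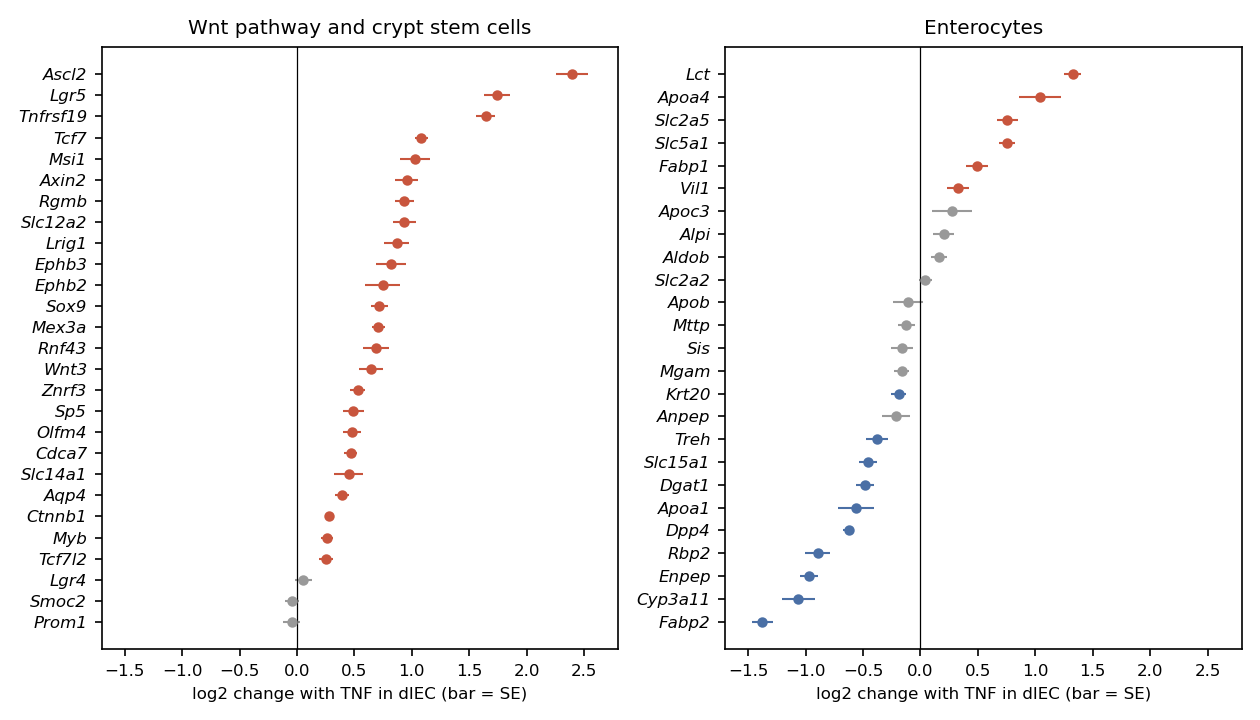
Log2 change with TNF in dIEC (horizontal axis, on the log2(FPKM + 1) scale; bars are the SE) of the kept genes of the Wnt and crypt stem cell list (left) and the enterocyte list (right, 1 gene not drawn), red for called rises, blue for called falls, grey for not called. Nearly all crypt genes lie to the right of 0, up to Ascl2 at 2.40, and the enterocyte genes run from Fabp2 at -1.38 to Lct at 1.32.

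Enterocyte genes, which serve absorption on the villus, fell more often than they rose. Of 26 kept, 11 fell and 6 rose, with a median of -0.16 in dIEC and 0.22 in f/f. By the sign of the tested difference, 10 of them had a lower response in dIEC and none a higher one, beside 1.90% and 1.39% of all rows. With the replicate block 18 had a lower response and 1 a higher one, beside 4.78% and 6.32% of all rows. Fabp2, the intestinal fatty acid binding protein, fell from 1604, 1337, 1717 and 1334 to 569.6, 563, 538 and 619.5 FPKM (log2 change -1.38, SE 0.09, adjusted p = 1.03e-08). Lct, the lactase gene, rose from 1.45, 1.7, 1.79 and 1.47 to 5.9, 5.8, 5.4 and 4.94 FPKM, less than in f/f (1.32 against 2.40, adjusted p of the difference 3.15e-05). The glucose transporter gene Slc5a1 also rose less (0.75 against 1.32, adjusted p = 0.00367), and the sucrase gene Sis changed by -0.16 in dIEC (adjusted p = 0.166, or 0.00837 with the replicate block) and 0.52 in f/f (adjusted p of the difference 0.00973). Enpp7, an alkaline sphingomyelinase of the brush border, went from 2.57, 2.43, 2.05 and 2.14 to 1.86, 1.89, 1.63 and 1.59 FPKM in dIEC and from 1.05, 1.28, 1.92 and 1.16 to 4.3, 5.54, 5.51 and 5.2 FPKM in f/f (difference -1.66, SE 0.14, adjusted p = 1.45e-05). The dIEC change of Enpp7 itself (-0.26, adjusted p = 0.0396) was lost when any of 5 single libraries was left out, with adjusted p up to 0.107.

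Several of the deepest falls were also in transport and metabolic genes of the villus. S100g, the vitamin D-dependent calcium binding protein of enterocytes, fell from 2002, 1689, 2259 and 1854 to 345, 278, 264 and 365 FPKM (log2 change -2.64, f/f -2.55). Isx, the intestine-specific homeobox gene that represses β-carotene uptake, fell from 6.22, 4.25, 3.75 and 5.9 to 0.137, 0.117, 0.0458 and 0.0918 FPKM (-2.44, f/f -1.86). Aldh1a1, a retinaldehyde dehydrogenase that makes retinoic acid, fell from 1147, 1093, 1074 and 1180.1 to 267, 240.2, 217 and 280.2 FPKM (-2.16, f/f -1.81). In none of these 3 was the difference between genotypes called, but alternatives called it for Isx and Aldh1a1, the replicate block (adjusted p = 0.0266 and 0.0172) and sample weights for both, and the fit without library 3 of dIEC for Isx (adjusted p = 0.0199). The carboxylesterase gene Ces1g fell by 2.70 on the log2 scale, the complement factor H-related gene Cfhr2 by 2.34, Slc5a4b, of the glucose transporter family, by 2.09, and the glucuronosyltransferase genes Ugt2b5 and Ugt2b38 by 2.43 and 2.33. The Ugt2b genes are near-identical copies and their split is uncertain. Spink3, a trypsin inhibitor, fell from 726, 541, 818 and 619.6 to 148, 139.8, 119 and 172 FPKM, more than in f/f (-2.21 against -0.94, adjusted p of the difference 0.00306), as did Pcp4l1 (-1.44 against -0.14, adjusted p = 0.000288).

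The remaining large rises were in genes of iron, energy and barrier function. Cybrd1, the duodenal ferric reductase, rose from 2.01, 1.04, 1.16 and 1.19 to 27.9, 26.4, 25.3 and 28.6 FPKM (log2 change 3.59, SE 0.093, adjusted p = 3.01e-13). Ak4, a mitochondrial adenylate kinase, rose by 2.82 and Sprr2b, a small proline-rich protein of stressed epithelium, from 15.4, 11.2, 8.92 and 7.85 to 80.3, 95.7, 107 and 93.6 FPKM (3.04). In each, library 1 was the highest of the untreated dIEC libraries.

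Secretory lineages showed mixed changes. Of 22 Paneth cell genes kept, 11 fell and 6 rose, with a median of -0.19 in dIEC and 0.19 in f/f, and quantile normalization left 5 falls and 7 rises. Lyz1, the lysozyme of Paneth granules, rose from 2138, 1737, 1883 and 2033 to 2328, 2125, 2461 and 2555 FPKM (0.28, adjusted p = 0.0074, but 0.136 after median-of-ratios scaling), and Ang4, an antimicrobial ribonuclease, from 175, 124, 157 and 139 to 266, 245, 276 and 288 FPKM (0.86). Pnliprp2, a lipase-related protein, rose by 0.98. Mptx1, a pentraxin, fell from 8.98, 7.11, 8.56 and 8.5 to 3.46, 3.06, 2.86 and 3.36 FPKM (-1.15), more than in f/f (difference -0.76, adjusted p = 0.0131). Defa21, one of the α-defensin genes, changed by -0.29 in dIEC and 1.32 in f/f (difference -1.60, SE 0.1, adjusted p = 4.66e-07). The α-defensins are near-identical copies, so single values such as that of Defa21 are uncertain. Among 15 goblet cell genes, 3 rose and 3 fell. Zg16, a lectin of the mucus layer, fell from 294, 224, 279 and 215 to 79.8, 92.8, 80.4 and 82.7 FPKM (-1.57, f/f -0.82, adjusted p of the difference 0.0038), and Agr2, a disulfide isomerase needed for mucin assembly, by 0.56 on the log2 scale. The transmembrane mucin gene Muc13 rose by 0.55, and Muc2, the main gel-forming mucin, was not called (13.7, 14.0, 14.2 and 14.5 against 11.2, 12.1, 12.2 and 11.1 FPKM, adjusted p = 0.111). Muc2 was called as a fall under 4 alternatives, the fit of the 8 dIEC libraries alone (adjusted p = 0.00305) and that without library 1 of f/f TNF (adjusted p = 0.000451) among them.

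Of 19 enteroendocrine genes, 12 rose and none fell on the deposited scale, while median-of-ratios scaling gave 9 rises and 2 falls. Gcg, the precursor of GLP-1, rose from 31.1, 30.7, 30.9 and 28.4 to 52.4, 56.1, 60.1 and 49.2 FPKM (0.82), the granin gene Chgb by 0.59 and the prohormone-processing gene Cpe by 0.43. Of 6 tuft cell genes kept out of 14, 2 rose and 2 fell, including Pou2f3, the tuft cell transcription factor (0.57), and Rgs13 (-0.75).

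**Figure D4:**
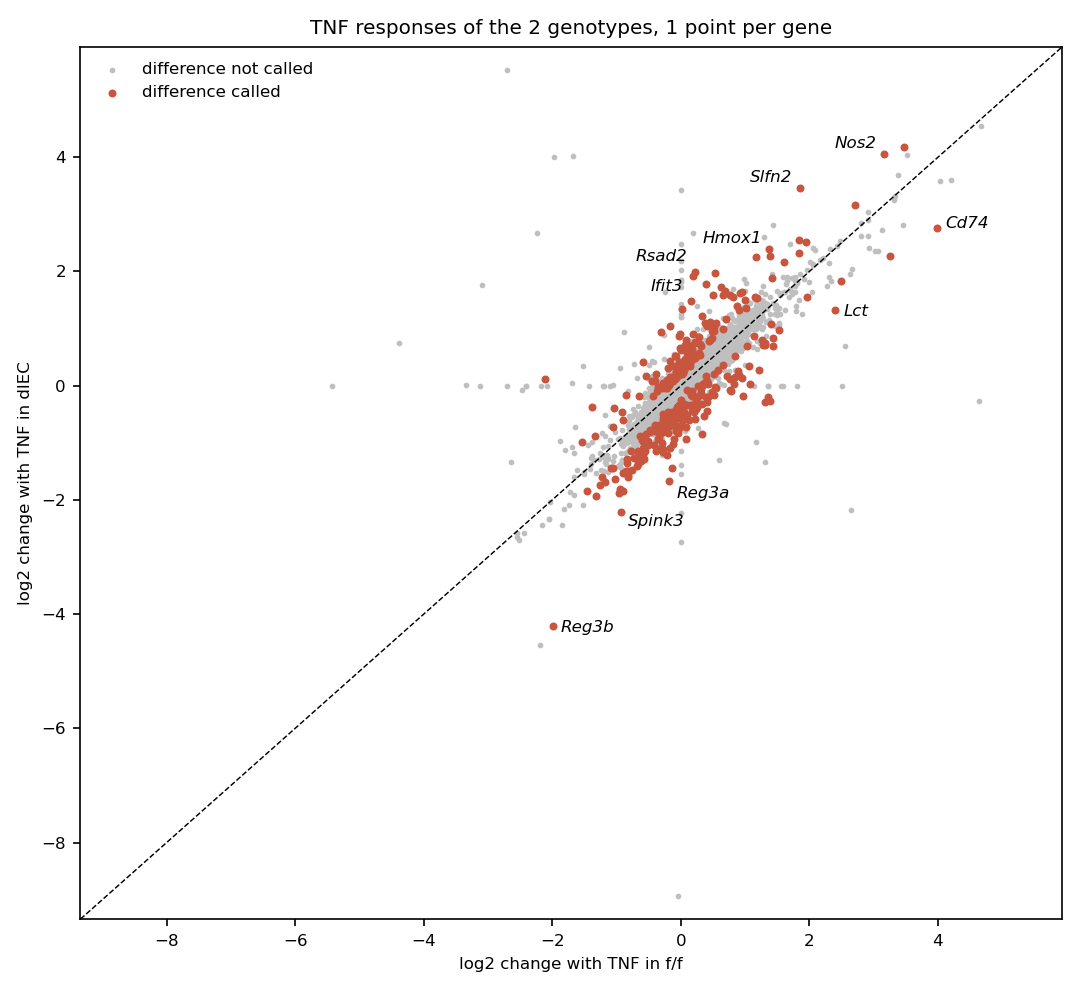
Log2 change with TNF in f/f (horizontal) against dIEC (vertical), 1 point per gene of a single row (10979), with genes called for a difference of the responses in red and the line of equality dashed. Most points follow the line, with Pearson r = 0.784 across genes, and the labelled genes lie away from it.

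Across all rows, the dIEC response followed the control response in most genes. The genotypes share no library in these contrasts. Of the 3702 rows that rose in dIEC, 2591 (70.0%) also rose in f/f, which is 86.8% of the 2986 that rose there. Of the falls, 1734 were shared, 79.0% of those in dIEC and 77.1% of those in f/f, and 37 rows were called in opposite directions. The test of the difference called 365 rows (3.29%), 154 of them higher in dIEC (1.39%) and 211 lower (1.90%). It called 240 without library 4 of f/f and 1231 (11.1%) with the replicate block, 701 higher (6.32%) and 530 lower (4.78%). Among named genes that gained a call with the block and are not given above, the difference (dIEC minus f/f) was positive for Cldn4 (0.79), Parp14 (0.47), Nqo1 (0.40), Chgb (0.38), Atf3 (0.35), Areg (0.31), Mcm4 (0.23), Ripk3 (0.19) and Mcm6 (0.17). Of these, Nqo1 fell in both genotypes, and less in dIEC. The difference was negative for Slc16a3 (-0.68), Slc5a4b (-0.57), Cybrd1 (-0.44), Fabp2 (-0.43), Pfkfb3 (-0.40) and Ccl25 (-0.21). Slc5a4b, Fabp2 and Ccl25 fell in both genotypes and more in dIEC, while Slc16a3, Cybrd1 and Pfkfb3 rose less in dIEC. The block moved the NRF2 genes called higher from 5 to 11, enteroendocrine genes from 1 to 5, immediate early genes from 0 to 4, cell death genes from 1 to 4 and EGF receptor genes from 2 to 4, and the antigen processing genes called lower from 2 to 5. Further moves were in other NF-κB targets called higher, from 1 to 3, and in surface and TGF-β and BMP genes, each from 0 to 2. Chemokines called lower went from 0 to 2, and surface and cell death genes called lower each from 1 to 2. Of the 365 rows called without the block, 363 had a single row per symbol. Among these 363, the change had one sign in both genotypes and was larger in dIEC in 204. It was smaller in dIEC in 54, and had opposite signs in 105.

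**Figure D5:**
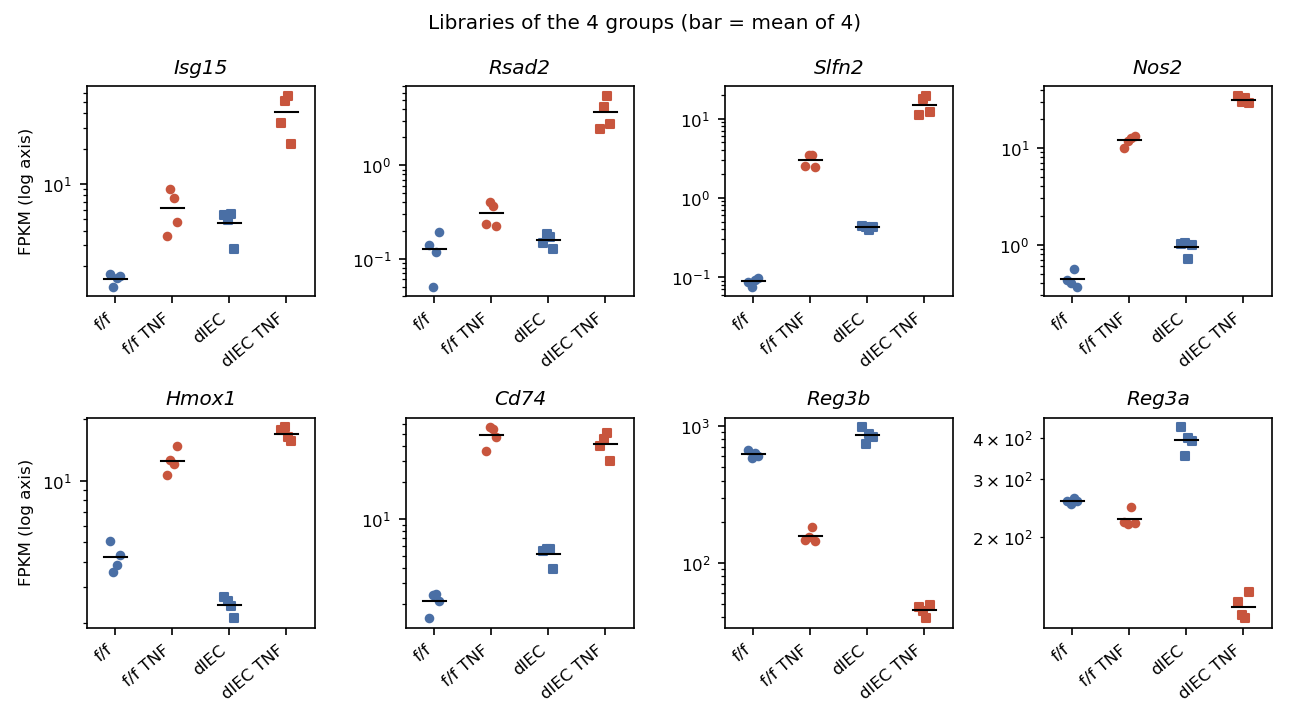
FPKM (log axis, a scale of its own in each panel) of 8 genes in the 16 libraries, by group, with circles for f/f, squares for dIEC, red for TNF and a bar at the mean of 4. Rsad2, Slfn2 and Nos2 reach higher levels in treated dIEC than in treated f/f, Cd74 overlaps after TNF, and Reg3b and Reg3a start higher and end lower in dIEC.

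Markers of cells that do not belong in an epithelial culture were near 0. Of 18 immune markers, 3 were kept and rose: Cd14 (1.27), Kit (0.62) and Lyz2 (0.32), which the epithelium can itself express. Their list summed to between 27.2 and 30.3 FPKM without TNF and between 40.1 and 46.0 FPKM with it, almost all from Lyz2 and Cd14. The leukocyte gene Ptprc was at 0.0869, 0.0662, 0.0875 and 0.114 FPKM without and 0.0346, 0.0468, 0.0323 and 0.0547 FPKM with TNF, with every treated library below the lowest untreated one. Mrc1, a macrophage mannose receptor, went the other way, from 0.0903, 0.0598, 0.0766 and 0.0853 to 0.644, 0.628, 0.581 and 0.644 FPKM, and Itgam, like Ptprc, had every treated value below every untreated one. Of the 13 immune markers below the minimum, the groups of 9 overlapped and 1 was at 0 throughout, and the part of such cells in the results was not tested. Of 21 mesenchymal and endothelial markers only Vim was kept, and it was not called (4.06, 3.98, 3.7 and 3.56 against 7.04, 4.14, 4.43 and 3.56 FPKM). Library 1 of dIEC TNF held the highest values of Vim and of Col1a1 (0.273, 0, 0 and 0.022 FPKM).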

How the data were processed

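RNA from 16 libraries of mouse small intestinal organoids was sequenced by the submitters, and 8 of the libraries, 4 untreated and 4 given TNF, make up the comparison. The deposited values are FPKM, fragments per kilobase of transcript scaled to the mapped fragments of a library, 1 column per library. Per the submitters' processing notes, the tools were TopHat2 2.1.1, Cufflinks 2.2.1 and Cuffdiff on mm10. No strand setting is named there. FPKM values are not counts and the depth is unknown, so no counting interval is given.

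Values were tested as log2(FPKM + 1), which understates the change of low genes, over the 11097 rows whose mean reached 1 FPKM; 12750 rows were below it. A model with a mean for each of the 4 groups was fitted over 16 libraries in limma 3.58.1 (R 4.3.3) (12 residual degrees of freedom) with a mean-variance trend and two-sided moderated tests. Contrasts were dIEC TNF minus dIEC, the same in f/f, and their difference. A response called higher or lower in dIEC refers to the sign of this difference, so a deeper fall counts as lower. Benjamini-Hochberg adjustment ran over all rows of a contrast, and "called" means an adjusted p under 0.05. Symbols with several rows (254) were not named. The script was tested on simulated data.

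Replicate numbers may pair the dIEC libraries: same-numbered treated and untreated libraries had correlated deviations, at 0.253, 0.293, 0.118 and 0.419. Differently numbered dIEC libraries gave -0.253 to 0.159, the highest being library 1 of dIEC with library 3 of dIEC TNF, above the third pair. A pairing by number is read from these correlations only, as the labels do not state one, and it remains uncertain. Blocked values are given for named genes whose call the block changes and for main counts it moves by over 1.5 times. In f/f the fourth pair gave -0.0296, below the 0.146 of library 4 of f/f with library 3 of f/f TNF.

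Named genes were Atg16l1, among called genes without overlap the 15 that rose most and the 10 that fell most, up to 3 called members of smallest adjusted p from each of 28 gene lists, and the 5 largest differences in each direction; other list members are given as members. The members, the lists and the comparison were chosen with earlier results of these data known. Positions are from GENCODE and upstream sequences from RefSeq, both GRCm38; 74.4% of single-row genes matched a RefSeq window, too few for a check over all risen or fallen genes. A few genes that meet the rule or were listed are not reported here by name, but count in the totals. Of 155 list members below the minimum, values only are given.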

Additional observations from a re-analysis of the deposited data

Results flagged for a closer look

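Single libraries stood apart in 17 of the 320 groups of 4 tested, judged by the gap to the nearest other value over the range of the group (Dixon's 95% critical value for 4). Chance gives about 1 in 20 such groups. Library 4 of dIEC TNF held 7 of them and library 4 of dIEC 6. The treated library 4 held Nfkbia at 192 FPKM (the others at 218 to 219), Rel at 5.23 FPKM (the others at 4.19 to 4.35) and Atg12 at 17.8 FPKM (the others at 15.6 to 15.8). It also held Gapdh at 1920 FPKM (the others at 2480 to 2560), Reg1 at 531 FPKM (the others at 475 to 480.0) and Slc16a3 at 26.8 FPKM (the others at 40.6 to 41.3). It also held Xbp1 at 75.8 FPKM (the others at 71.1 to 71.7). The untreated library 4 held Cd74 at 3.90 FPKM (the others at 5.44 to 5.68), Gcg at 28.4 FPKM (the others at 30.7 to 31.1) and Cldn4 at 4.95 FPKM (the others at 7.74 to 8.27). That library also held Olfm4 at 955 FPKM (the others at 784 to 787), Sprr1a at 3.34 FPKM (the others at 5.39 to 5.54) and Tab3 at 5.60 FPKM (the others at 4.44 to 4.59). Library 3 of dIEC held Nos2 at 0.711 FPKM (the others at 0.999 to 1.04). Library 1 of dIEC held Cybrd1 at 2.01 FPKM (the others at 1.04 to 1.19). Library 3 of dIEC TNF held Slc5a4b at 20.9 FPKM (the others at 26.8 to 27.3). Library 1 of dIEC held Ccl25 at 449 FPKM (the others at 406 to 410.0). The part of any library effect in these values was not tested.

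The TNF response of 39 of the genes named in the text differed between genotypes by the limma test of the difference (Benjamini-Hochberg adjusted p under 0.05), given here as dIEC minus f/f on the log2(FPKM + 1) scale. This difference was positive for 22 of them, including Gsta4, which fell in both genotypes and less in dIEC. The largest positive differences were in Rsad2 (1.78), Ifit3 (1.72), Slfn2 (1.60), Ifit1 (1.43), Ifi27l2a (1.40), Usp18 (1.31), Sprr1a (1.09) and Hmox1 (1.01). Smaller differences in that direction were in Il1rn (0.92), Nos2 (0.90), Igtp (0.82), Duoxa2 (0.73), Cxcl10 (0.71), Gsta4 (0.70), Duox2 (0.70) and Irgm2 (0.61). Smaller differences in that direction were in Irgm1 (0.61), Mlkl (0.59), Cxcl16 (0.56), Tnf (0.46), Ereg (0.45) and Hbegf (0.34). The difference was negative for 17, which covers smaller rises in dIEC, deeper falls, and falls set against rises in f/f. The largest were in Reg3b (-2.23), Enpp7 (-1.66), Defa21 (-1.60), Reg3a (-1.49), Pcp4l1 (-1.31), Spink3 (-1.27), Cd74 (-1.22) and Lct (-1.08). Smaller differences of that sign were in H2-Ab1 (-0.98), Mptx1 (-0.76), Zg16 (-0.75), Sis (-0.68), Bnip3 (-0.66), Slc5a1 (-0.57), Reg1 (-0.49) and Ces2a (-0.49). Smaller differences of that sign were in Cyp2j6 (-0.44). With a pseudocount of 0.1 in place of 1 the differences for Slfn2 and Nos2 were 0.80 and 0.45 and were not called.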

How the results depend on the processing

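For 160 genes named in the text, 4362 of 4443 dIEC responses under the alternatives kept their direction and side of the threshold, 36 lost the call, 44 gained it and 1 reversed. That one was Gsta4, at 0.0085 on the log2 scale after quantile normalization (adjusted p = 0.943). Among list members not discussed, that normalization also reversed Defa3 (0.0101), Gadd45a (-0.014) and Gpx2 (0.19, adjusted p = 0.00643). Of 4283 differences of the responses, 4090 kept both, 78 lost and 115 gained a call, and none reversed; differences for Cxcl10 (15 alternatives), Tnf (11), Reg1 (17) and Cyp2j6 (17) were lost most often. A pseudocount of 0.1 lost those of Tnf (adjusted p = 0.313), Nos2 (0.257), Irgm2 (0.256), Cxcl10 (0.248), Igtp (0.208), Ifi27l2a (0.206), Slfn2 (0.097), Duoxa2 (0.071), Ereg (0.0505) and Reg1 (0.0505), quantile normalization that of Sis (0.0678), and median-of-ratios scaling called a fall of Smoc2 (adjusted p = 0.00746).

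Counts that moved by over 1.5 times were as follows. With no minimum mean, 12 chemokines, 12 cytokines, 15 interferon-γ GTPases and 10 antimicrobial genes rose. At a minimum of 5 FPKM, which tests fewer genes, the differences numbered 195, and rises numbered 3 for cytokines, 18 for the type I and III interferon response, 2 for interferon-γ GTPases, 8 for antigen presentation, 3 for autophagy, 4 for Notch, 15 for Wnt and 5 for EGF receptor genes. Median-of-ratios scaling gave 3 NRF2 rises, and quantile normalization gave 2 autophagy rises, 5 EGF receptor rises and 5 Paneth falls. A fit of the 8 dIEC libraries alone gave 7 Paneth falls. The replicate block gave 1231 differences and 12 autophagy rises. Sample weights gave 1920 differences, 12 autophagy rises and 6 goblet falls, and leaving out library 4 of both dIEC groups and library 1 of both f/f groups gave 967, 12 and 6. Leaving out library 4 of both dIEC groups alone, chosen after seeing the data, gave 8 autophagy rises. Without single libraries the differences numbered 240 to 450, autophagy rises 3 to 9 and NRF2 rises 2 to 5. Except where the number of genes tested fell, the cause was not tested.

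The depth behind the FPKM is unknown, so the precision of low values cannot be given, and 4 libraries a group limit small changes. In f/f, same-numbered libraries correlated at 0.321, 0.124, 0.118 and -0.0296.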

Other observations

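The gene families below were picked after their values were seen, so their counts are descriptions. Over all rows, 33.4% rose, 2.43% rose by at least 1 on the log2 scale and 19.8% fell. Genes of glycolysis and of the hypoxia response rose together in dIEC. Of 32 such genes kept, 29 rose and 1 fell (Pfkfb4, a call lost without any 1 of 5 dIEC libraries, with adjusted p of 0.0555 to 0.0852), 19 of them by at least 1, with a median of 1.16 in dIEC and 1.24 in f/f. Pfkfb3, which makes the activator of glycolysis, rose from 3.78, 3.09, 3.59 and 2.9 to 28.2, 25.7, 26.4 and 30.7 FPKM (log2 change 2.73, SE 0.081, adjusted p = 1.51e-12). Egln3, the oxygen-sensing prolyl hydroxylase PHD3 and itself a target of the hypoxia-inducible factor, rose from 12.1, 8.98, 8.7 and 7.69 to 61.9, 59.8, 61.0 and 66.8 FPKM. No treated value of either gene came near the untreated ones. The lactate exporter gene Slc16a3 rose by 2.35, the hexokinase gene Hk1 by 1.96 and Gapdh from 1369, 1320.3, 1185 and 834 to 2479, 2529, 2555 and 1918 FPKM. A difference of the responses was called for 5 of the 32, each with the lower change in dIEC, beside 3.29% of all rows. Bnip3, a mitophagy receptor and one of them, rose less in dIEC than in f/f (1.83 against 2.49, adjusted p of the difference 0.00973). The oxygen supply and density of the cultures are not given in the sources used here, and their part in the result was not tested.

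Families that metabolize drugs, bile acids and lipids fell together. All 12 kept UDP-glucuronosyltransferase genes fell (median -0.92), as did 11 of 12 carboxylesterase genes (-0.62), 13 of 19 glutathione S-transferase genes (-0.36) and 27 of 35 cytochrome P450 genes (-0.72, against -0.33 in f/f). Cyp2j6 fell from 225, 218, 205 and 254 to 94.8, 89.0, 80.1 and 105 FPKM, and Ces2a from 217, 198, 192 and 185 to 61.3, 63.0, 55.1 and 54.6 FPKM. These families hold near-identical copies, so their members are not independent. Barrier genes did not move together. Of 8 claudin genes kept, 2 rose, 1 fell and 5 were not called, with a median of 0.23. Cldn4, a tight junction claudin and 1 of the 2, rose from 7.74, 7.98, 8.27 and 4.95 to 43.3, 52.6, 53.5 and 31.4 FPKM (2.48). Sprr1a rose by 2.26 in dIEC and 1.17 in f/f (adjusted p of the difference 0.00399).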
